A study of Mus musculus with 20 samples.

Results

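The cytochrome P450 genes of the mouse kidney were followed across 4 groups of mice. A gene was a member if it was protein coding, its symbol had the form Cyp, family number, subfamily letters and gene number, and it reached at least 1 CPM (counts relative to the scaled library total) in any 3 mice; Cyp27b1 and Cyp24a1 were left out. Of 94 genes with such a symbol, 92 remained after these exclusions, 41 reached the minimum and 51 did not. The members were thus chosen by their measured CPM level, and the counts below describe only the 41 genes that reached the minimum. For some genes this choice is tied to the contrasts between groups. Cyp2b10 reached 1 CPM in WT mice only, and Cyp26a1 would not have passed without the Veh mice. Cyp3a11 and Cyp4f15 reached it in WT and Veh mice only. No WT mouse reached it for Cyp3a13, Cyp4f18 and Cyp8b1, and no Veh mouse for Cyp1a1. The gene just inside the minimum was Cyp8b1, with a third-highest CPM of 1.01, and the gene just outside was Cyp2j7, with 0.965. Symbols that end in a further letter (such as Cyp4a12a) and Cyp51 lie outside this pattern and are given separately.

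Total RNA of whole kidneys was sequenced from 20 mice of a 129SJ x C57Bl/6J strain, killed at 15 weeks of age. The groups were WT (5 untreated wild-type mice), Veh (6 Col4a3-/- mice given PBS weekly), Anti-miR-21 (6 Col4a3-/- mice given lademirsen at 50 mg/kg weekly) and ACEi (3 Col4a3-/- mice given ramipril in drinking water at 11 mg/L, with PBS injections per the study's methods). The methods describe the Col4a3-/- mice as F1 hybrid males. Treatment began at 5 weeks of age. The Col4a3-/- mice lack the alpha3 chain of type IV collagen and serve as a model of Alport syndrome, a kidney disease of the glomerular basement membrane that ends in tubulointerstitial fibrosis. Lademirsen is an oligonucleotide that inhibits miR-21, and ramipril inhibits the angiotensin-converting enzyme. WT mice were untreated, so the genotype and the PBS injections cannot be told apart between Veh and WT.

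Cytochrome P450 enzymes are haem proteins that insert an oxygen atom into a substrate, using electrons passed on by cytochrome P450 reductase and cytochrome b5 in the endoplasmic reticulum or by ferredoxin in mitochondria. Families 1 to 3 hold most enzymes of drug and xenobiotic metabolism, family 4 holds the omega-hydroxylases of fatty acids, and the families with higher numbers act mostly on sterols, bile acids, vitamins and retinoids. In the kidney they are most abundant in the proximal tubule, where 4A enzymes make 20-HETE from arachidonic acid and the 2C and 2J enzymes make epoxyeicosatrienoic acids, lipids that act on vessel tone and sodium transport.

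The estimated counts on genes summed to 28474301 to 29479629 per mouse, and 17622 of 47069 genes, all 41 P450 genes among them, passed the filter on low counts and were tested. Col4a3 ranged from 194 to 238 CPM in the WT mice and from 27.9 to 74.9 CPM in the 15 Col4a3-/- mice, which bears on the genotype of each mouse and not on its treatment. Adrenal cortex markers summed to at most 18.2 CPM. The labels' extraction text names adipose tissue, and adipocyte markers summed to at most 113 CPM. The summed level of 6 hepatocyte markers was highest in ACEi A23, at 687 CPM, on flow cell A. Within WT it was highest in A18 (465 CPM), and within Veh in A16 (460 CPM), of lane 2 of flow cell B. Counts of albumin and Serpina3k, which belong to these markers, differed by sequencing lane. The 3 libraries of lane 1 of flow cell B (WT A17 and A18, Veh A20) held 1765 to 2307 albumin (Alb) counts and 129 to 191 Serpina3k counts, against 7 to 680 and 0 to 44 in the other 17 libraries. Calls that were lost or gained without these 3 libraries are named with the comparison they belong to. Fewer cells of a type and less RNA per cell cannot be told apart in RNA of a whole kidney.

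As a group the P450 transcripts were abundant in WT kidneys, low in Veh kidneys and in between in both treated groups. They took 1.16% to 1.41% of all counts in the 5 WT mice, with a mean of 1.27% ± 0.113 (SD, n = 5). In the 6 Veh mice the share was 0.200, 0.280, 0.196, 0.465, 0.245 and 0.368% in A1, A4, A9, A16, A19 and A20, with a mean of 0.292% ± 0.106 (SD, n = 6). Every Veh mouse was below every mouse of the other 3 groups, and the highest Veh mice, A16 and A20, were those sequenced on flow cell B. With lademirsen the share was 0.954% ± 0.193 (SD, n = 6), and it fell into 3 mice at 0.750 to 0.836% (A2, A8 and A10) and 3 at 1.02 to 1.198% (A12, A15 and A22). With ramipril it was 0.727, 0.868 and 0.836%, within the range of the Anti-miR-21 mice except for A11, which was below it. The ranges of both treated groups met that of WT in 1 mouse only, Anti-miR-21 A22, which was above the lowest WT mouse.

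**Figure D1:**
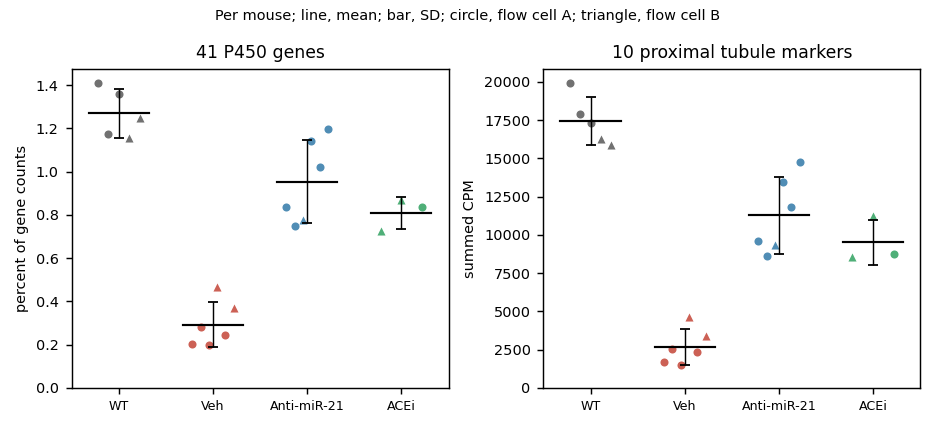
Share of all gene counts taken by the 41 P450 genes (left, percent) and summed CPM of 10 proximal tubule markers (right) in each mouse of the 4 groups. Points are mice, lines are means and bars are SD; the 6 Veh mice lie lowest in both panels, at 0.196 to 0.465% and at 1479.8 to 4637 CPM.

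The 10 proximal tubule markers (among them Slc34a1, the phosphate transporter, and Lrp2, megalin) moved in the same order. Their summed level was 15856 to 19907 CPM in WT, 1479.8 to 4637 in Veh, 8641 to 14796 in Anti-miR-21 and 8586 to 11209 in ACEi mice, and A16 was again the highest Veh mouse. Against WT, all 10 fell in Veh, and against Veh, all 10 rose in each treated group, by a median log2 change of -2.53, 2.06 and 1.85. Of all genes tested, 34.0% fell in Veh, and 28.8% and 21.0% rose with lademirsen and ramipril. The 3 androgen-responsive proximal tubule genes (Kap, Odc1 and Slco1a1) summed to 22667 to 35906, 430.4 to 5111, 10769 to 24706 and 12671 to 15552 CPM in WT, Veh, Anti-miR-21 and ACEi. Markers of other segments moved as well. The 2 distal tubule markers (Slc12a3 and Pvalb) fell in Veh and rose with each treatment, with medians of -2.94, 2.19 and 1.56. So did 3 of 4 collecting duct markers, while Aqp2 was not called. Of 3 thick ascending limb markers, 2 fell in Veh and 1, Cldn16, rose. The part of any of these markers in the P450 differences was not tested.

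A few genes made up most of the P450 RNA. Per kilobase of exon, the highest level in WT was that of Cyp4b1, at 3483 CPM per kb, followed by Cyp2e1 at 1074, Cyp2j5 at 732 and Cyp2a4 at 554. The same 4 genes led in the other groups, with Cyp2j5 above Cyp2e1 in Veh (156 against 114 CPM per kb). Cyp4b1 made up 50.3% of the summed P450 CPM in WT and 31.6% in Veh. At the other end, Cyp2b10 reached 1 CPM in 3 WT mice and in no mouse of another group, and Cyp3a11 and Cyp8b1 reached it in 3 mice each.

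Between Veh and WT, 11 P450 genes were higher in Veh and 21 were lower at an adjusted p under 0.05. Of all 17622 genes tested, 39.0% were called higher and 34.0% lower. The median log2 fold change was -0.76 over the 41 P450 genes and 0.07 over all genes. The ranges of the groups did not overlap for 29 P450 genes, 9 higher and 20 lower in Veh, where 54.9% of all genes had ranges apart. The split depended on the scaling. With library totals in place of TMM factors, 16 were higher and 16 lower, and the median of all genes moved from 0.07 to 0.65. Under it 5 of the 21 falls (Cyp2j9, Cyp2r1, Cyp2u1, Cyp4a10 and Cyp4f13) lost their call and 5 genes without a call (Cyp27a1, Cyp2d22, Cyp2j6, Cyp4f17 and Cyp8b1) became higher. The median of the P450 genes was then -0.19, below that of all genes. On the authors' FPKM, tested as log2(FPKM + 1) for 40 of the genes (all but Cyp2c23, which was not tested there), 16 were higher and 17 lower. Without the 3 libraries of lane 1 of flow cell B, 10 were higher and 21 lower, as Cyp4a14 lost its call, Cyp2j6 became lower and Cyp2b10 and Cyp3a11 did not pass the filter on low counts. Within flow cell A alone, 10 were higher and 21 lower, and within flow cell B alone, 9 and 21.

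**Figure D2:**
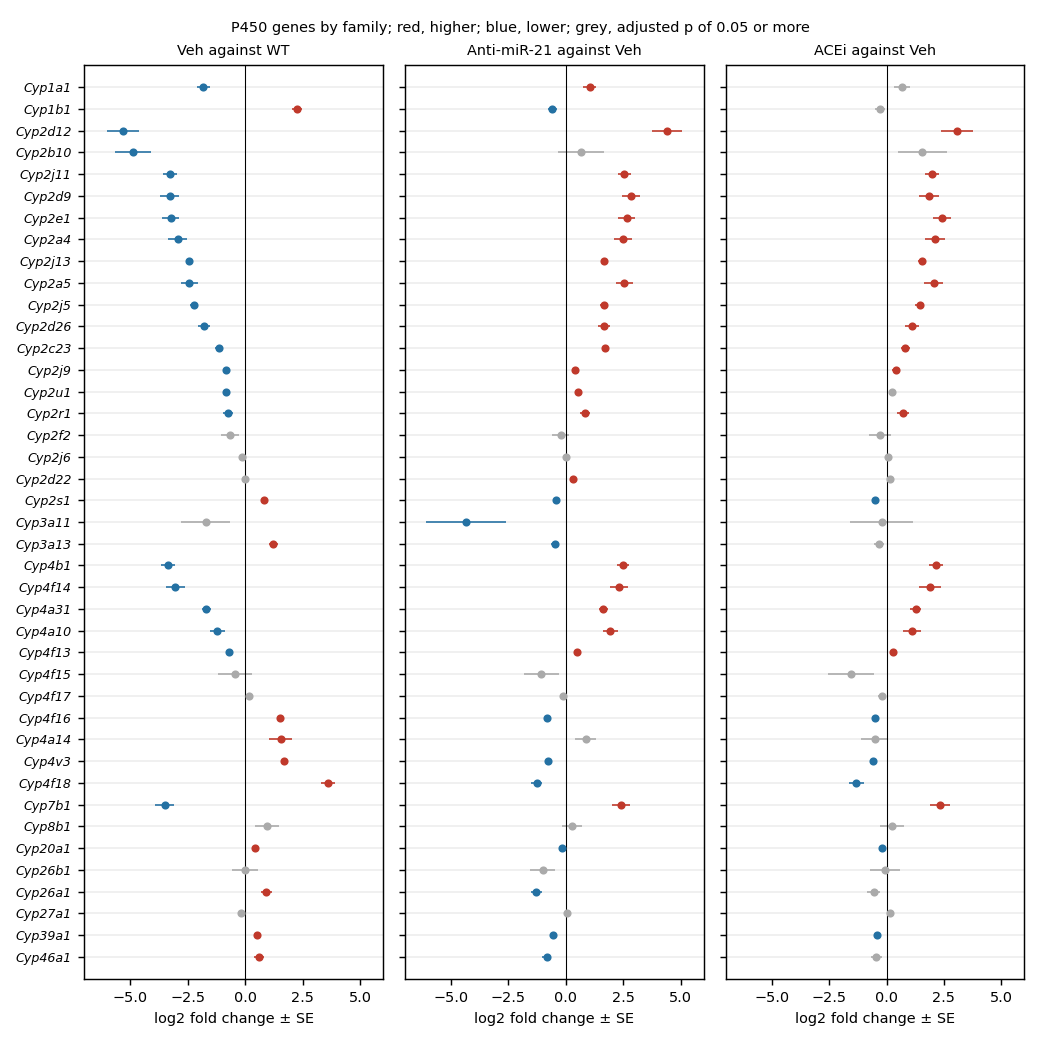
Log2 fold change with its SE for the 41 P450 genes, ordered by family and by change in Veh, in 3 comparisons: Veh against WT, Anti-miR-21 against Veh and ACEi against Veh. Red points were called higher, blue points lower and grey points had an adjusted p of 0.05 or more; Cyp2d12 lies farthest to the left in Veh (-5.33) and farthest to the right with lademirsen (4.39) and ramipril (3.08), and the middle and right panels share the 6 Veh mice.

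Cyp4b1, which oxidises fatty acids and some xenobiotics, had the highest level per kilobase of the P450 transcripts. The gene, ENSMUSG00000028713 (chr4:115624725-115647723, minus strand, GRCm38), measured 9108, 7079.6, 9356, 6753 and 6995 CPM in the 5 WT mice and 375 to 1327 with a median of 690.04 in the 6 Veh mice. The groups were far apart, and its log2 fold change was -3.36 ± 0.29 (SE; adjusted p = 2.2e-09). Reads of 100 bases that match Cyp4b1 pseudogenes as well make up 4.46% of its transcript.

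The 3 omega-hydroxylases of subfamily 4A did not move together. Cyp4a31 measured 349.5, 390.4, 263, 242 and 309 CPM in WT and 63.5 to 159 with a median of 78.9 in Veh, a log2 fold change of -1.69 ± 0.20 (adjusted p = 2.3e-07). Cyp4a10 also fell, with a log2 fold change of -1.21 (adjusted p = 0.0026), but its ranges overlapped, as the Veh mice measured 43.9, 65.9, 45.2, 165, 52.1 and 157 CPM in the order A1, A4, A9, A16, A19 and A20 and the lowest WT mouse 126. Cyp4a14 went the other way. It measured 10.8, 43.7, 3.80, 5.56 and 19.7 CPM in WT and 26.4 to 88.7 with a median of 38.0 in Veh, with a log2 fold change of 1.54 ± 0.51 (adjusted p = 0.011), and 1 WT mouse, A6, at 43.7 CPM lay inside the Veh range. Without A6 the change was 2.29. The Cyp4a14 call was lost without lane 1 of flow cell B (log2 fold change 1.06, adjusted p = 0.12). Cyp4a10 and Cyp4a31 share 12.7% and 8.22% of their 100-base windows with other 4A genes, so reads could be split between them.

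Of the enzymes known to make epoxides of arachidonic acid, Cyp2c23, the only 2C gene among the members, measured 28.3, 30.0, 19.1, 20.3 and 27.3 CPM in WT and 7.45 to 16.2 with a median of 11.4 in Veh, and its log2 fold change was -1.14 ± 0.16 (adjusted p = 2e-06). Of the 5 members of subfamily 2J, 4 fell. The highest per kilobase, Cyp2j5, measured 1950.3, 1712, 1661, 1582 and 1682 CPM in WT and 229 to 591 with a median of 350.2 in Veh, with a log2 fold change of -2.23 ± 0.18 (adjusted p = 9.9e-10). Cyp2j11, Cyp2j13 and Cyp2j9 changed by -3.28, -2.44 and -0.83. Cyp2j6, at 40.5 to 49.0 CPM in WT and 37.5 to 45.6 in Veh, lay just outside the threshold (log2 fold change -0.13 ± 0.06, adjusted p = 0.054). It was called lower with DESeq2 (-0.15, adjusted p = 0.029), with flow cell as a term (-0.14, adjusted p = 0.044) and without lane 1 of flow cell B (-0.18, adjusted p = 0.029), and higher with library totals (0.45, adjusted p = 6e-06) and on log2(FPKM + 1) (0.43, adjusted p = 5.1e-06).

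Of the 4 members of subfamily 2D, 3 fell, and Cyp2d12 had the largest fall of the 41 genes. It measured 167, 110.1, 147, 63.4 and 167 CPM in WT. In Veh it measured 0.221, 2.05, 0.252, 12.96, 0.522 and 3.92 CPM, so that 3 of 6 mice were under 1 CPM and A16 stood above the rest. The log2 fold change was -5.33 ± 0.69 (adjusted p = 6.2e-07), and without A16 it was -6.55. Cyp2d9, a steroid 16alpha-hydroxylase that is known as male specific in the liver, measured 442, 282, 206.995, 192 and 327 CPM in WT and 10.3 to 68.3 with a median of 23.6 in Veh, a log2 fold change of -3.27 ± 0.41 (adjusted p = 4.9e-07). Cyp2d26 fell with a log2 fold change of -1.78, while Cyp2d22 measured 30.3 ± 6.02 CPM in WT (SD, n = 5) and 30.1 ± 4.21 in Veh (SD, n = 6) and was not called (adjusted p = 0.95). Cyp2d9 shares 9.86% of its 100-base windows with other 2D genes.

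Among the other 8 genes of family 2, 6 fell, 1 rose and 1 was not called. Cyp2e1, which oxidises ethanol and small solvents, measured 2979.8, 1732, 2284, 2058 and 2539 CPM in WT and 94.0 to 593 with a median of 205.9 in Veh, a log2 fold change of -3.24 ± 0.37 (adjusted p = 1.2e-07). Cyp2e1 is also a liver gene, and its counts were 9083 to 60527 in the lane that held most albumin counts and 3421 to 66897 elsewhere. Cyp2a4 and Cyp2a5, a pair of nearly identical steroid and coumarin hydroxylases, changed by -2.94 and -2.44; they share 11.2% and 14.4% of their 100-base windows with each other or a pseudogene. Cyp2u1, a fatty acid hydroxylase, and Cyp2r1, a vitamin D 25-hydroxylase, changed by -0.82 and -0.76. Cyp2b10, a known target of the constitutive androstane receptor, had 12, 6, 48, 57 and 58 counts in WT and 0 to 6 counts in each Veh mouse. It passed the minimum through WT alone, so its level elsewhere had to be lower and its place among the falls is no result. The 57 and 58 counts were those of A17 and A18, from the lane that held most albumin counts, and without that lane Cyp2b10 did not pass the filter on low counts and was not tested. Cyp2s1, an enzyme known outside the liver, was the gene that rose, from 23.8, 23.4, 22.4, 18.3 and 19.8 CPM in WT to 32.6 to 47.6 with a median of 36.6 in Veh (log2 fold change 0.82 ± 0.11, adjusted p = 1.3e-06).

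Cyp7b1, the oxysterol 7alpha-hydroxylase, fell, alone among the 5 sterol and bile acid enzymes of the list. It measured 277, 324, 309, 326 and 497 CPM in WT and 11.0 to 84.0 with a median of 19.3 in Veh, with a log2 fold change of -3.50 ± 0.42 (adjusted p = 2.5e-07), and without Veh A16 of -4.12. Cyp39a1, the 24-hydroxycholesterol 7alpha-hydroxylase, and Cyp46a1, the cholesterol 24-hydroxylase, rose by 0.51 and 0.60 on the log2 scale. Cyp27a1, the mitochondrial sterol 27-hydroxylase, measured 44.1 to 61.2 CPM in WT and 39.2 to 51.2 in Veh and was not called (adjusted p = 0.07), nor was Cyp8b1, at or under 1.203 CPM in every mouse.

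The largest rise of the 41 genes was that of Cyp4f18, known as a leukotriene B4 hydroxylase of myeloid cells. No WT mouse reached the minimum for Cyp4f18, so its direction against WT was tied to the choice of members. It measured 0.445, 0.984, 0.845, 0.409 and 0.168 CPM in WT and 5.88 to 7.97 with a median of 6.85 in Veh. Each Veh mouse was at least 5.88 CPM and each WT mouse at most 0.984, and the log2 fold change was 3.59 ± 0.31 (adjusted p = 2e-09). Cyp1b1, which oxidises oestrogens and polycyclic hydrocarbons and is known from stromal cells, measured 17.8, 23.9, 24.9, 15.1 and 8.68 CPM in WT and 68.7 to 111 with a median of 87.6 in Veh (log2 fold change 2.26 ± 0.21, adjusted p = 4.2e-09). Its relative Cyp1a1 went down, from a range of 1.10 to 2.64 CPM in WT to a range of 0.364 to 0.895 in Veh (log2 fold change -1.82 ± 0.29, adjusted p = 1.1e-05). No Veh mouse reached the minimum for Cyp1a1, so this direction was tied to the choice of members as well.

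Macrophage markers (Adgre1, Csf1r, Cd68, C1qa and Fcgr1) moved with Cyp4f18, and their summed level was 123 to 135 CPM in WT, 564 to 669 in Veh, 247 to 354 in Anti-miR-21 and 312 to 368 in ACEi. All 5 markers rose in Veh against WT and fell in each treated group against Veh. Among all genes tested, 39.0% rose in Veh, and 30.5% and 19.1% fell with lademirsen and ramipril. Fibroblast markers (Col1a1, Col3a1, Pdgfra, Pdgfrb and Dcn) summed to 141 to 339.6, 2634 to 3369.8, 581 to 1243 and 1350.3 to 1490.5 CPM, and all 5 rose in Veh against WT, 4 fell with lademirsen and 3 with ramipril. Their part in the rises of Cyp4f18 and Cyp1b1 was not tested.

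Cyp4v3, a fatty acid omega-hydroxylase whose human counterpart is mutated in a corneal and retinal dystrophy, measured 6.86, 6.56, 7.90, 6.75 and 6.71 CPM in WT and 21.1 to 26.2 with a median of 22.04 in Veh (log2 fold change 1.69 ± 0.12, adjusted p = 1.3e-10). Cyp4f16 measured 8.60, 10.7, 9.67, 9.61 and 9.48 CPM in WT and 23.9 to 32.002 with a median of 27.2 in Veh (1.4982 ± 0.09, adjusted p = 2.3e-11); it shares 9.80% of its 100-base windows with Cyp4f17 and Cyp4f37, and Cyp4v3 overlaps an annotated gene, Gm45753, and shares 5.77% of its windows with it. Cyp20a1, whose substrate is unknown, rose least, from a range of 17.7 to 21.5 CPM in WT to a range of 24.8 to 28.3 in Veh (0.42 ± 0.06, adjusted p = 1.8e-06). Cyp3a13 rose from a range of 0.535 to 0.802 CPM in WT to a range of 1.13 to 2.03 in Veh (1.23 ± 0.19, adjusted p = 6e-06). No WT mouse reached the minimum for Cyp3a13, so its direction against WT was tied to the choice of members.

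Retinoic acid is cleared by family 26. Cyp26a1 was low and rose from a range of 0.574 to 1.09 CPM in WT to a range of 1.11 to 1.73 in Veh (0.93 ± 0.25, adjusted p = 0.0028). It reached 1 CPM in every Veh mouse, and elsewhere only in WT A18 and ACEi A23. It thus passed the minimum through Veh, and its place among the rises is no result. Cyp26b1 varied within every group, from 1.52 to 6.50 CPM in WT and from 1.04 to 6.69 in Veh, and was not called in any comparison with Veh.

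**Figure D3:**
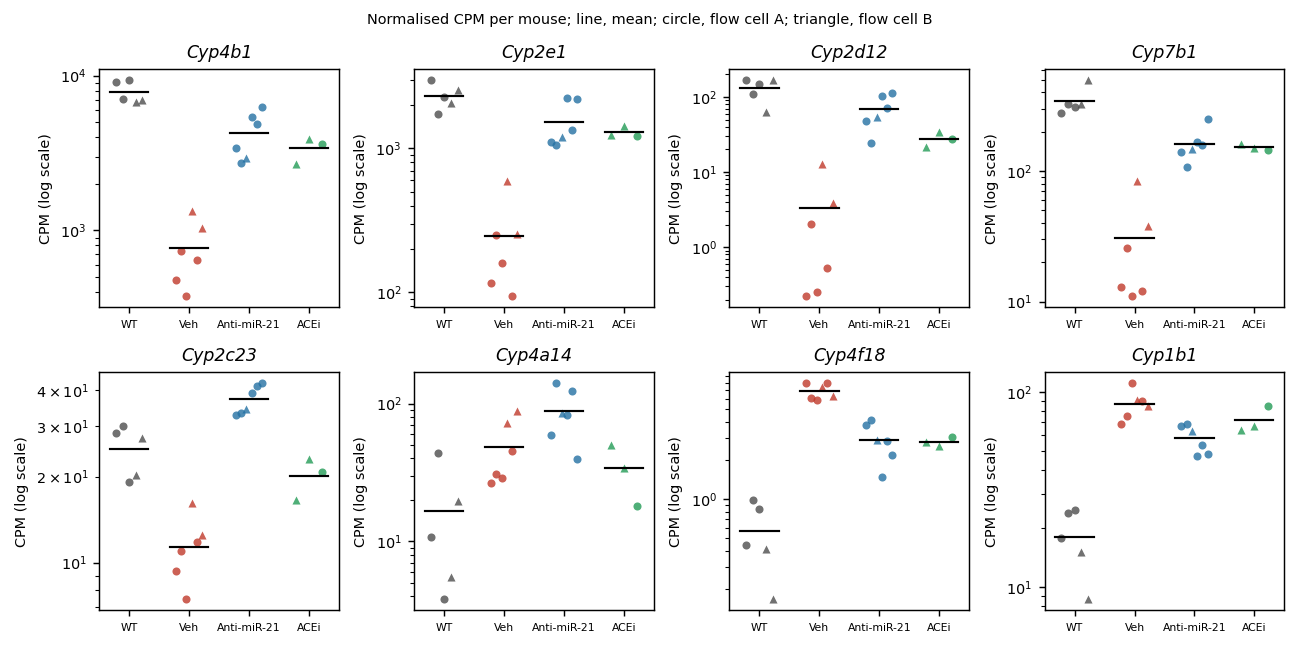
CPM on a log scale of 8 P450 genes in each mouse of the 4 groups; points are mice and lines are means. Cyp4b1, Cyp2e1, Cyp2d12 and Cyp7b1 are lowest in Veh, Cyp2c23 is highest in the Anti-miR-21 mice at 32.9 to 42.5 CPM, Cyp4a14 does not follow Cyp4b1, and Cyp4f18 and Cyp1b1 are lowest in WT.

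Both treatments were compared with the same 6 Veh mice, so the 2 comparisons are not independent and their values are given side by side. With lademirsen 21 P450 genes were higher than in Veh and 11 lower, where 28.8% and 30.5% of all genes tested were called higher and lower. With ramipril 18 were higher and 6 lower, against 21.0% and 19.1% of all genes. The median log2 fold change of the P450 genes was 0.48 with lademirsen and 0.25 with ramipril, and that of all genes -0.04 and -0.05. Ranges did not overlap with Veh for 23 P450 genes with lademirsen (36.4% of all genes) and for 19 with ramipril (38.6% of all genes). With library totals as the scale the counts became 18 higher and 15 lower with lademirsen and 14 higher and 10 lower with ramipril, as the median of all genes moved to -0.38 and -0.32. On log2(FPKM + 1) they were 16 and 13 with lademirsen and 14 and 12 with ramipril. Within flow cell A alone, 22 were higher and 9 lower with lademirsen, and 15 and 0 with ramipril, with 1 ACEi library. Within flow cell B alone, 2 and 1 were called with lademirsen, with 1 Anti-miR-21 library, and 6 and 2 with ramipril. Without lane 1 of flow cell B the counts were 22 and 9 with lademirsen and 17 and 4 with ramipril, of 39 genes. With lademirsen Cyp3a13 then lost its call, Cyp3a11 was not tested and Cyp4a14 became higher, and with ramipril Cyp2r1, Cyp20a1 and Cyp39a1 lost theirs. With flow cell as a term in the model they were 21 and 10 with lademirsen and 18 and 5 with ramipril.

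The abundant genes that were low in Veh were higher in each treated group. Cyp4b1 measured 2726 to 6276 with a median of 4136 CPM with lademirsen and 2694, 3900.4 and 3631 with ramipril, changes against Veh of 2.48 ± 0.28 (adjusted p = 3.3e-07) and 2.15 ± 0.31 (adjusted p = 3e-05). Cyp2e1 measured 1054 to 2252 with a median of 1279 and 1244, 1438 and 1227 CPM (2.64 ± 0.35, adjusted p = 2.9e-06; 2.41 ± 0.39, adjusted p = 9.7e-05). For Cyp2j5 the values were 922 to 1499 with a median of 1145 and 904, 1087 and 983 CPM, and the changes 1.68 ± 0.17 and 1.44 ± 0.20. No treated mouse overlapped with a Veh mouse for these 3 genes, and lademirsen mice A12, A15 and A22 were above A2, A8 and A10 for each of them.

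Cyp2d12 had the largest rise with each treatment, 4.39 ± 0.66 with lademirsen (24.7 to 111 with a median of 62.7 CPM, adjusted p = 1e-05) and 3.08 ± 0.70 with ramipril (21.3, 33.6 and 27.9 CPM, adjusted p = 0.0018). Without Veh A16, the highest Veh mouse, the changes were 5.64 and 4.34. Cyp2d9 measured 118 to 304 with a median of 203.5 and 100, 102 and 122 CPM, changes of 2.83 ± 0.40 and 1.85 ± 0.44. Cyp7b1 measured 107 to 251 with a median of 153 and 162, 150.04 and 146 CPM, changes of 2.40 ± 0.40 and 2.32 ± 0.44, which without Veh A16 were 3.04 and 2.96. Cyp4a31 measured 235 to 370.4 with a median of 300.4 CPM with lademirsen, 5 of 6 mice being inside the WT range, and 232, 239.97 and 226 with ramipril (1.62 and 1.27).

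In subfamily 2D, Cyp2d9, Cyp2d12 and Cyp2d26 were called higher with each treatment. Cyp2d22 was called higher with lademirsen (0.30 ± 0.10, adjusted p = 0.015) and had a value of 0.15 ± 0.12 with ramipril (adjusted p = 0.35), and the direct comparison of the treatments gave 0.15 ± 0.12 (adjusted p = 0.61). Its call was lost with upper-quartile scaling (0.22, adjusted p = 0.057), with library totals (-0.04, adjusted p = 0.73) and on log2(FPKM + 1) (-0.02, adjusted p = 0.87). Of the 5 genes of subfamily 2J, 4 were higher with each treatment, and Cyp2j6 was not called with either, at 38.2 to 45.9 and 42.1 to 45.3 CPM. Cyp2j9 (0.42 and 0.40) lost its call with both treatments under library totals and on log2(FPKM + 1), and with ramipril under upper-quartile scaling too (adjusted p = 0.076). Cyp2j6 became lower with lademirsen under library totals (-0.35) and on log2(FPKM + 1) (-0.33), and with ramipril on log2(FPKM + 1) (-0.19, adjusted p = 0.038). Cyp2b10 had 0 to 6 counts in each lademirsen mouse and 5, 1 and 7 in the ACEi mice and was not called with either treatment (adjusted p = 0.58 and 0.26). Cyp4a14 measured 39.8 to 141 with a median of 83.9 CPM with lademirsen and 50.0, 34.2 and 17.9 with ramipril (adjusted p = 0.12 and 0.51 against Veh); without lane 1 of flow cell B the first was called higher (log2 fold change 1.13, adjusted p = 0.047).

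The genes that were high in Veh were lower with treatment in part. Cyp4f18 measured 1.499 to 4.09 with a median of 2.85 CPM with lademirsen and 2.79, 2.58 and 3.03 with ramipril, changes of -1.27 ± 0.24 (adjusted p = 0.00017) and -1.31 ± 0.31 (adjusted p = 0.0026). Cyp4v3 measured 9.27 to 17.1 with a median of 12.7 and 14.3, 14.1 and 16.5 CPM (-0.78 and -0.59), and Cyp4f16 13.7 to 19.4 with a median of 15.0 and 19.6, 19.2 and 19.2 CPM (-0.81 and -0.49). All treated mice lay between WT and Veh for these 3 genes. Cyp1b1 fell with lademirsen, to 46.9 to 68.4 with a median of 58.4 CPM (-0.59 ± 0.18, adjusted p = 0.0089), and measured 63.5, 67.1 and 85.1 CPM with ramipril (-0.27 ± 0.22, adjusted p = 0.35). Cyp2s1 fell with both, to 22.1 to 33.5 with a median of 28.8 and to 28.6, 23.8 and 28.1 CPM (-0.45 ± 0.10 and -0.51 ± 0.13). Cyp39a1 fell with both (-0.55 and -0.40), with ramipril in 14 of 20 fits with 1 mouse left out (highest adjusted p = 0.22, without A13), and the ramipril call was lost without lane 1 of flow cell B (-0.36, adjusted p = 0.059) and with flow cell as a term (adjusted p = 0.057). Cyp46a1 fell with lademirsen (-0.83) and had a value of -0.44 with ramipril (adjusted p = 0.16). Cyp26a1 fell with lademirsen, to 0.380 to 0.976 CPM (-1.28 ± 0.24, adjusted p = 0.00014), and measured 0.820, 0.680 and 1.40 CPM with ramipril (adjusted p = 0.13). As Cyp26a1 passed the minimum through Veh, its place among the falls with lademirsen is no result either. Cyp3a13 and Cyp20a1 changed by -0.49 and -0.19 with lademirsen and by -0.32 and -0.18 with ramipril, where the value of Cyp3a13 with ramipril did not pass the test (adjusted p = 0.23); without lane 1 of flow cell B, Cyp3a13 was not called with lademirsen (adjusted p = 0.056) nor Cyp20a1 with ramipril (adjusted p = 0.063). The Cyp20a1 call with ramipril held in 11 of 20 fits with 1 mouse left out. For ramipril the scaling also decided other calls: Cyp46a1, Cyp26a1 and Cyp3a13 were called lower with library totals (adjusted p = 0.023, 0.032 and 0.03) and on log2(FPKM + 1) (adjusted p = 0.014, 0.0048 and 0.0092), and Cyp1b1 was called lower on log2(FPKM + 1) (adjusted p = 0.031). These falls were thus not shown to belong to lademirsen alone.

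Cyp3a11, an enzyme of liver and gut that metabolises many drugs, was called lower with lademirsen than in Veh (-4.33 ± 1.74, adjusted p = 0.038), and the call, which held in 15 of 20 fits with 1 mouse left out, rested most on 1 library. Its counts were 47, 68 and 65 in A17, A18 and A20, the 3 libraries of lane 1 of flow cell B with most albumin counts, and 0 to 13 in the other 17. Without Veh A20 the log2 fold change was -0.39 (adjusted p = 0.87), and without all 3 libraries Cyp3a11 did not pass the filter on low counts. The part of liver transcripts in the Cyp3a11 counts was not tested. As Cyp3a11 reached the minimum in WT and Veh mice only, its place among the falls with lademirsen is no result.

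The treatments themselves differed in 1 of 41 P450 genes, where 0.584% of all genes tested differed; 5 P450 genes had an unadjusted p under 0.05. That gene was Cyp2c23, which measured 32.9, 33.4, 34.4, 39.1, 41.4 and 42.5 CPM in the 6 lademirsen mice and 16.6, 22.97 and 20.7 in the 3 ramipril mice, so that all lademirsen mice were above all ramipril mice and above all WT mice. It was higher with lademirsen by 0.89 ± 0.19 on the log2 scale (adjusted p = 0.036). The call held in 13 of 20 fits with 1 mouse left out; without any 1 of A10, A12, A15, A22, A11, A13 or A23 it was lost (highest adjusted p = 0.19, without A23), and the log2 difference stayed between 0.77 and 0.9991 in all 20. Against WT, Cyp2c23 was higher with lademirsen (0.58 ± 0.16, adjusted p = 0.0061), and the value with ramipril was -0.32 ± 0.19 (adjusted p = 0.19). For Cyp4b1 the difference between the treatments was 0.33 ± 0.32 (adjusted p = 0.67) and for Cyp2e1 0.23 ± 0.41 (adjusted p = 0.83), which does not show that the drugs act alike, as the ACEi group holds 3 mice.

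Against WT, 20 P450 genes differed with lademirsen, 10 higher and 10 lower, where 43.7% of all genes differed. With ramipril 17 differed, 6 higher and 11 lower, where 47.7% of all genes differed. Cyp4b1 remained below WT with both (-0.88 ± 0.27 and -1.21 ± 0.35; adjusted p = 0.014 and 0.0071), as did Cyp2j5 (-0.55 and -0.79) and Cyp2j13 (-0.78 and -0.91). With lademirsen the Cyp2j5 call was lost under library totals (-0.32, adjusted p = 0.078) and on log2(FPKM + 1) (-0.32, adjusted p = 0.11). Cyp2b10 is counted among the lower genes with both, where its place was fixed by the minimum it passed in WT alone. Cyp3a11 is counted among the lower genes with lademirsen (-6.04, adjusted p = 0.0057). It reached the minimum in WT and Veh mice only, so this place is no result either. Cyp2d12 and Cyp2d9 were called below WT with ramipril (-2.25 and -1.42) and were not called with lademirsen (-0.94 and -0.45); without ACEi A11 neither passed against WT (adjusted p = 0.079 for Cyp2d12 and 0.077 for Cyp2d9), Cyp2d9 was not called on log2(FPKM + 1) (adjusted p = 0.081), and the difference between the treatments was not past the threshold for either (adjusted p = 0.41 and 0.35). Cyp2e1 was not called against WT with lademirsen or ramipril (-0.60 ± 0.35 and -0.83 ± 0.43; adjusted p = 0.17 and 0.12). Cyp4f18, Cyp4f16, Cyp4v3 and Cyp1b1 stayed above WT with both, by 2.32, 0.69, 0.91 and 1.68 with lademirsen and 2.28, 1.01, 1.11 and 1.99 with ramipril. For Cyp4f18 and Cyp3a13, also among the higher genes with both, the direction was tied to the choice of members, as no WT mouse reached the minimum. Cyp4a14 was above WT with lademirsen (2.40 ± 0.53, adjusted p = 0.0012; 3.15 without WT A6). With library totals as the scale the 10 higher and 10 lower of lademirsen became 12 and 4, and the 6 higher and 11 lower of ramipril 12 and 8. Without lane 1 of flow cell B, which holds 2 of the 5 WT libraries, they were 8 and 6 with lademirsen and 6 and 9 with ramipril. With lademirsen Cyp2d22 and Cyp2s1 were then no longer higher and Cyp1a1, Cyp2j11 and Cyp7b1 no longer lower, Cyp2j6 became lower, and Cyp2b10 and Cyp3a11 were not tested; with ramipril Cyp2u1 was no longer lower and Cyp2b10 was not tested.

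Genes of 1 subfamily lie side by side in the genome, and their calls between Veh and WT are given by cluster. Of all genes tested, 39.0% were called higher and 34.0% lower, so mixed calls among neighbours do not set these clusters apart. Of the 41 genes, 23 lay in 5 clusters in which the next member was within 1 Mb (GRCm38, GENCODE M21). In the cluster at chr17:32506050-32947402, Cyp4f13 and Cyp4f14 fell in Veh (-0.70 and -3.04; -3.68 for Cyp4f14 without Veh A16), Cyp4f16 rose (1.4982), and Cyp4f15 and Cyp4f17 were not called. The cluster at chr4:115486200-115647723 held Cyp4a14, which rose, beside Cyp4a10, Cyp4a31 and Cyp4b1, which fell. Without lane 1 of flow cell B, Cyp4a14 was not called. At chr4:96027534-96664154, Cyp2j6 (-0.13) was not called between Cyp2j11 (-3.28) and Cyp2j9 (-0.83). At chr15:82370527-82794294, Cyp2d22 was not called beside Cyp2d9, Cyp2d12 and Cyp2d26, which fell. The fifth cluster, at chr7:25802475-27133660, held Cyp2s1, which rose, Cyp2a4 and Cyp2a5, which fell, and Cyp2f2, which was not called. It also held Cyp2b10, which was called lower but passed the minimum through WT alone, so that its fall is no result.

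**Figure D4:**
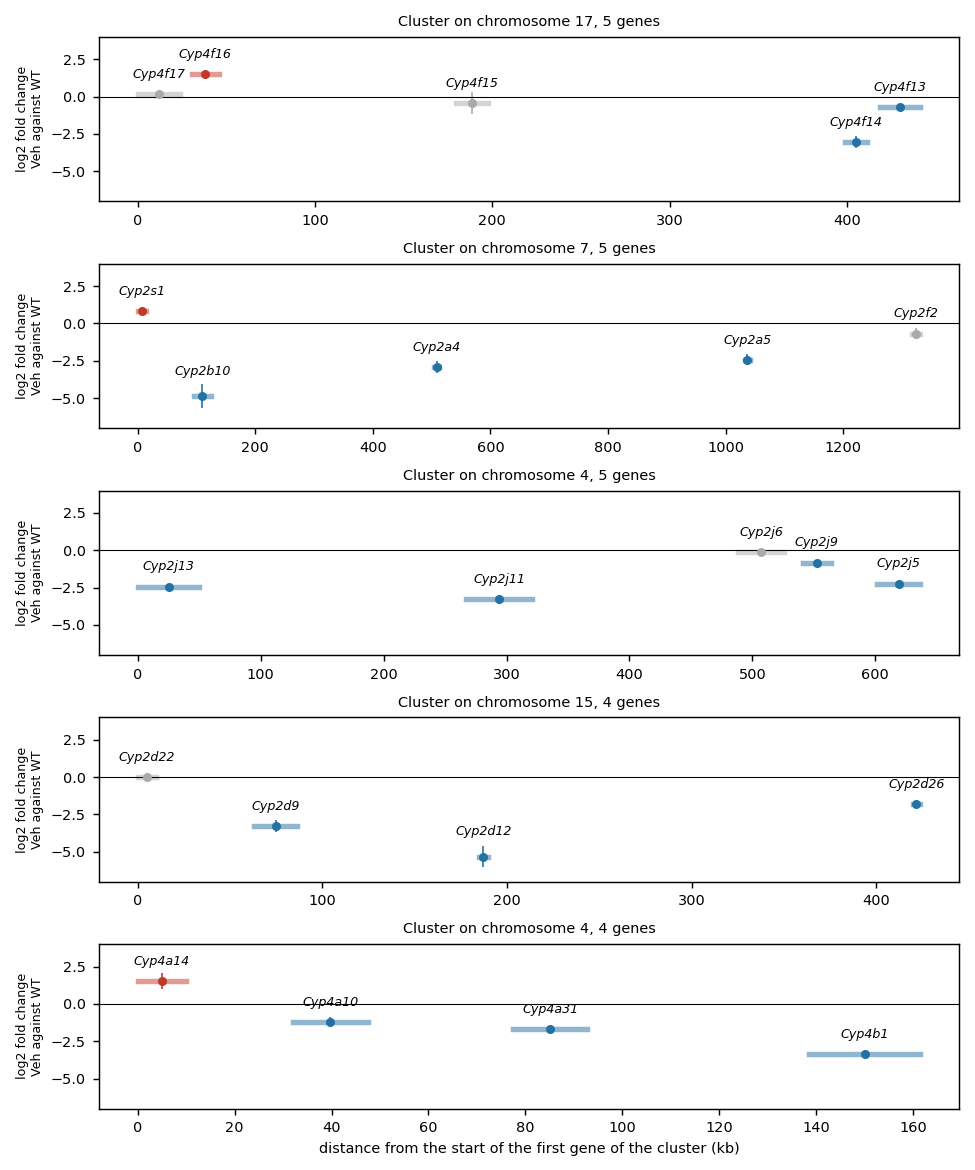
Log2 fold change of Veh against WT (points, with SE; thick bars span each gene) along 5 clusters of P450 genes, against the distance in kb from the start of each cluster's first gene. Red genes were called higher, blue lower and grey neither. Of the 5 clusters, 4 held a gene that was not called, and 3 held a gene that rose. Of the genes that rose, Cyp4a14 lost its call without lane 1 of flow cell B.

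The promoters of 31 of the 41 genes were found in RefSeq (GRCm38.p6), with 35 promoters of 300 bases, 250 before and 50 after the start. None was found for Cyp2c23, Cyp2d12, Cyp2d22, Cyp2u1, Cyp4a10, Cyp4a14, Cyp4a31, Cyp4f17, Cyp7b1 and Cyp39a1, so their promoters were not searched. Of the 35 promoters, 5 are shown. They belong to the highest gene per kilobase (Cyp4b1), the next highest (Cyp2e1), the gene of family 1 that rose (Cyp1b1) and the gene that rose most (Cyp4f18). The fifth, of Cyp2d9, is the only one of the 35 with the direct repeat described next. Capitals mark matches on either strand to the TATA box TATAAA, to the repeat AGGNCANAGGNCA, to which HNF4A and peroxisome proliferator-activated receptors are known to bind, and to GCGTG, the core to which the aryl hydrocarbon receptor binds.
Cyp4b1, chr4:115647672-115647971, minus strand: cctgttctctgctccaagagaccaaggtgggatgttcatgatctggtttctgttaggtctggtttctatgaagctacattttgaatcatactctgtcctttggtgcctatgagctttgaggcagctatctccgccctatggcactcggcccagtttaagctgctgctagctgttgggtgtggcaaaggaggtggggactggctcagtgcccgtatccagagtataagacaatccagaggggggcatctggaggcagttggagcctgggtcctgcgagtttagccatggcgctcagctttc
Cyp2e1, chr7:140763569-140763868, plus strand: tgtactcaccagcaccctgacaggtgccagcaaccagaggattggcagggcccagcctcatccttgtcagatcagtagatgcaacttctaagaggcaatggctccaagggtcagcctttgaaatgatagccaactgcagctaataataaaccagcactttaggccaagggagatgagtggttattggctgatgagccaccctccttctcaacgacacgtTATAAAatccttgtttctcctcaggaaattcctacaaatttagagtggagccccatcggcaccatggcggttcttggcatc
Cyp2d9, chr15:82452127-82452426, plus strand: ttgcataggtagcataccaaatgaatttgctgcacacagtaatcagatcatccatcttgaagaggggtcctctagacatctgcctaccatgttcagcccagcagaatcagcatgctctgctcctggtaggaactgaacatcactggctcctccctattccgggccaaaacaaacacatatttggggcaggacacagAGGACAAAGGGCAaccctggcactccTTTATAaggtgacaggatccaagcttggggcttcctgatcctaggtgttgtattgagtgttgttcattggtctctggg
Cyp1b1, chr17:79715012-79715311, minus strand: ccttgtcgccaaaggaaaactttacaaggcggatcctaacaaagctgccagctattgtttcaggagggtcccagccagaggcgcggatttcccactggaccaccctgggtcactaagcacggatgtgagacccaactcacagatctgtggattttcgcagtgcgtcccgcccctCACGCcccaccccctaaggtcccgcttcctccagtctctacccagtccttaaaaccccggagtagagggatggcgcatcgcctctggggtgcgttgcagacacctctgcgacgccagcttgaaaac
Cyp4f18, chr8:72009577-72009876, minus strand: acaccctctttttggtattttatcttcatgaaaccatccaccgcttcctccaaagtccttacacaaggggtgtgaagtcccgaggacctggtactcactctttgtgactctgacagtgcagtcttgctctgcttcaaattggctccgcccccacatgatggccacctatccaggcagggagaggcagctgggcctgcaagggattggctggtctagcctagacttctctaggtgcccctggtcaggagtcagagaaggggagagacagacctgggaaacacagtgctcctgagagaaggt

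In Cyp2d9 the repeat lies upstream of a match to the reverse of the TATA box, Cyp2e1 has a forward one, Cyp1b1 has a core match on the other strand and Cyp4b1 and Cyp4f18 have none of the 3. Over all 32851 promoters in the table, 13.6% held the TATA box, 0.381% the repeat and 32.4% the receptor core. A TATA box was found in 7 of 19 promoters of the 15 matched genes that fell in Veh, in 1 of 9 of the genes that rose and in 3 of 7 of the genes not called. The receptor core was found in 7 of 19, 5 of 9 and 0 of 7. Among the 19, Cyp4f14 and Cyp2j13 each have more than 1 promoter. Dinucleotides CG were counted as well: their median was 3 per promoter among the genes that fell, 17 among those that rose, 4 among those not called and 7 over all promoters. Cyp2r1 was the exception among the genes that fell, with 22, and Cyp3a13, Cyp4f16 and Cyp4f18 among those that rose, with 1, 2 and 3. These are counts of letters in 300 bases and were not tested.

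The target of lademirsen, miR-21, is made from a hairpin on chromosome 11. Its mature form is shown because the drug pairs with it, with the seed (bases 2 to 8) in capitals.
mmu-miR-21a-5p, chr11:86584120-86584141, minus strand, GRCm38.p6: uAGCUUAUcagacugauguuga

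The complement of the seed, ATAAGCT, was found in the annotated 3′ untranslated sequence of 0 of the 41 P450 genes and of 7.46% of 20981 protein-coding genes. The mature miRNA itself was not measured in these libraries.

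The partners that P450 enzymes need were lower in Veh as well. The counts of the gene lists that follow were made with TMM factors only. Beside them stand the shares of all genes tested, 39.0% higher and 34.0% lower in Veh against WT. Against Veh, 28.8% were higher and 30.5% lower with lademirsen, and 21.0% and 19.1% with ramipril. All 6 electron donors fell in Veh against WT, all 6 rose with lademirsen and 5 rose with ramipril, with medians of -1.49, 0.97 and 0.70. With library totals the median of all genes in Veh against WT moved from 0.07 to 0.65. Small falls, such as the smallest of the electron donors (-0.36), may therefore not hold on that scale, which was not tested. Por, the reductase that serves all microsomal P450s, had means of 605, 178, 367 and 317 CPM in WT, Veh, Anti-miR-21 and ACEi, and cytochrome b5, Cyb5a, had 936, 192, 613 and 502. Of 8 enzymes of haem synthesis, 7 fell in Veh (median -0.86); 6 rose with lademirsen and 7 with ramipril. Alas1, the rate-limiting enzyme, changed by -0.81 in Veh, and its value was 0.28 with lademirsen (adjusted p = 0.079) and 0.55 with ramipril (adjusted p = 0.011). Of 4 genes of haem breakdown, Hmox1, the inducible haem oxygenase, was higher in Veh (0.67), and Hmox2, Blvra and Blvrb were lower. Against Veh, Hmox1 was not called with lademirsen and was called higher with ramipril.

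Epoxide hydrolases, which act on the products of 2C and 2J enzymes, went both ways. Ephx2, the soluble form that degrades epoxyeicosatrienoic acids, changed by -2.44 in Veh and by 1.78 and 1.53 with lademirsen and ramipril, while Ephx1, the microsomal form, changed by 0.99, -0.79 and -0.98. Of the 10 other enzymes of arachidonic acid, 6 rose and 1 fell in Veh against WT, where 39.0% and 34.0% of all genes did. None was higher with treatment than in Veh. With lademirsen 5 were lower and with ramipril 3, where 30.5% and 19.1% of all genes were lower. Alox5ap, the activator of 5-lipoxygenase, changed by 3.51, -1.03 and -0.67 in these comparisons.

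Of 8 P450 genes outside the symbol pattern, 5 were tested. Cyp4a12a, the male 20-HETE synthase of the mouse kidney, had means of 1205, 64.7, 394 and 397 CPM in WT, Veh, Anti-miR-21 and ACEi, changes of -4.22, 2.61 and 2.62 (adjusted p = 2.3e-09, 1.9e-06 and 3.1e-05). Its near copy Cyp4a12b had 36.8, 29.3, 46.9 and 44.8, and reads could be split between them. Cyp51, the lanosterol demethylase of cholesterol synthesis, changed by -2.92, 2.13 and 1.32. Ptgis and Tbxas1, the prostacyclin and thromboxane synthases, rose in Veh by 1.54 and 0.42.

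Among 14 transcription factors known to act on P450 genes, 9 fell and 3 rose in Veh, where 34.0% and 39.0% of all genes did. Hnf4a changed by -1.75, 1.35 and 1.22 in Veh, with lademirsen and with ramipril, and Ppara, the receptor that drives 4A genes, by -1.12, 1.03 and 0.92. Ahr, the aryl hydrocarbon receptor, went the other way, by 1.64, -1.37 and -1.16. With lademirsen 7 rose and 2 fell against Veh, where 28.8% and 30.5% of all genes did. With ramipril 7 rose and 1 fell, where 21.0% and 19.1% did.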

How the data were processed

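Kidney RNA of 20 mice was sequenced as paired reads of 100 bases. Per the labels and methods, the authors used the OmicSoft aligner on GRCm38 and deposited estimated counts per gene and, in a second table, FPKM values normalised by their pipeline. Of the positive estimated counts 29.067% were not whole, and they were rounded. Library totals of 28474301 to 29479629 counts set the precision. Symbols came from GENCODE M21 for 46488 of 47069 IDs. Of the 41 genes, 40 were found among the FPKM entries (Cyp2c23 was not matched), and 5 are marked there as confounded (Cyp1b1, Cyp4a10, Cyp4a14, Cyp4a31 and Cyp4v3). Another 3 libraries carry no label in the sample list and were not used.

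Genes were filtered with filterByExpr (minimum count 10, minimum total 15), scaled by TMM and fitted over all 4 groups in edgeR 4.0.16 (R 4.3.3; quasi-likelihood F test), with Benjamini-Hochberg adjustment over 17622 genes and a threshold of 0.05. CPM are TMM-normalised, ± marks SE for log2 fold changes and SD for levels, and ranges were compared between mice. On simulated data of 17622 genes with 200 changed 2-fold, 78, 78, 72 and 76% were recovered in Veh against WT, Anti-miR-21 against Veh, ACEi against Veh and Anti-miR-21 against ACEi. Of the genes called there, 3.11, 4.88, 7.1 and 5% were unchanged ones. In the data 39.0% and 34.0% of genes were called higher and lower in Veh against WT, so the simulation does not test the scaling. Alternatives were DESeq2 1.42.0, library totals, upper-quartile scaling, no filter, flow cell as a term or alone, only the groups compared, each mouse left out, other minima (0.5 and 5 CPM) and limma 3.58.1 on log2(FPKM + 1) or log2(FPKM + 0.1); leaving out lane 1 of flow cell B was added after the data were seen. Any P450 gene could be named. Full values were given for the highest gene of each role list, the 3 largest rises and 3 largest falls among members of each comparison with non-overlapping groups and a mean log2 CPM of at least 1, those that differed between the treatments, and those moving against their list; others named with values were chosen after these were seen. The members and all lists were chosen with earlier results of these data known. The labels give no culture or litter, so p-values measure the spread between mice.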

Additional observations from a re-analysis of the deposited data

Results flagged for a closer look

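Among 51 groups of mice looked at for 17 genes, 7 held a mouse that stood apart from the others by Dixon's criterion. Chance gives about 1 in 20 for independent groups. These groups share mice across genes that move together, so the count cannot show an excess over chance. Veh mouse A16 was high for 3 genes: Cyp2d12 at 12.96 CPM (next 3.92), Cyp2e1 at 593 CPM (next 256) and Cyp7b1 at 84.0 CPM (next 38.0). The same mouse had the highest summed proximal tubule marker level of the Veh group, 4637 CPM; the part of this in its P450 levels was not tested. Cyp4v3 stood apart in Veh mouse A9 at 26.2 CPM (next 22.4) and in WT mouse A14 at 7.90 CPM (next 6.86). Cyp7b1 was high in WT mouse A18 at 497 CPM (next 326). Cyp4f16 was high in Anti-miR-21 mouse A8 at 19.4 CPM (next 15.5).

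Cyp2c23 differed between the treatments, by a log2 fold change of 0.89 of Anti-miR-21 over ACEi in the direct comparison.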

How the results depend on the processing

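The counts of P450 genes higher and lower in Veh than in WT, 11 and 21, stayed within 1.5 times of these values under every alternative run. With flow cell B alone, where Anti-miR-21 has 1 library, 2 genes were higher and 1 lower with lademirsen than in Veh, 6 higher and 2 lower with ramipril than in Veh, and 10 differed between lademirsen and WT, in place of 21, 11, 18, 6 and 20. With flow cell A alone, where ACEi has 1 library, 0 were lower with ramipril than in Veh and 11 differed between ramipril and WT, in place of 6 and 17; these fits had fewer mice, and a lone library was assumed to vary like the other groups. Genes lower with ramipril than in Veh numbered 10 with library totals and 12 with log2(FPKM + 1), with or without the filter on low values. Genes lower with lademirsen than in Veh numbered 7 at a minimum of 5 CPM, which fewer members reach, and 13 differed between lademirsen and WT with log2(FPKM + 1). The single gene that differed between the treatments, Cyp2c23, became 0 within flow cell A or B alone, and the number ranged from 0 to 2 genes with each mouse left out; the second gene, without Anti-miR-21 A8, was Cyp4f16. Cyp2c23 was not matched to an FPKM entry here and so not tested under the 3 FPKM settings, where 0 of the other 40 genes differed. Where no reason is given, the cause was not tested.

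No call of the 17 genes with full values reversed under these alternatives. Outside these 17, Cyp2j6 was called lower with DESeq2 and higher with library totals and on log2(FPKM + 1), in Veh against WT. Cyp27a1 (-0.17, not called) was called higher there with library totals and on log2(FPKM + 1). Of 1360 log2 fold changes with 1 mouse left out, 1340 kept direction and side of the threshold, 18 lost and 2 gained the call. Without lane 1 of flow cell B, 64 of 68 kept both, 3 lost and 1 gained the call. Many of the genes behind these values were chosen for large changes in these data, and some fits left out a mouse of neither group compared. Less stable calls of other members are not among them, such as Cyp39a1 with ramipril (14 of 20) and Cyp3a11 with lademirsen (15 of 20). No paired analysis was possible because replicate numbers were given in accession order only and mouse names are unique to each group. The ACEi group holds 3 mice.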
